A study of Mus musculus with 5 samples.

Results

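The genes described here form the core of mTOR complex 1 (mTORC1) and its closest regulators in germinal centre B cells of mice. They were chosen by name, as every probe set whose platform gene symbol was Mtor, Rptor, Rheb, Tsc1, Tsc2, Akt1s1, Rps6kb1, Eif4ebp1, Ddit4 or Sesn1. Of these 10 genes 9 had a probe set of that name, 22 probe sets of 45101 on the array, and Rps6kb1, the S6 kinase gene, was not analysed here. The series compared germinal centre B cells sorted from spleen cells of C57BL/6 littermates aged 12 weeks, 7 days after an injection of sheep red blood cells. The WT group (3 arrays) carried the Cg1-Cre transgene and was eGFP-negative, and the REL group (2 arrays) carried Cg1-Cre together with relfl/fl, loxP-flanked alleles of the c-Rel gene, and was sorted as eGFP-positive. Cre was thus present in both groups, and it is expressed from the immunoglobulin Cg1 locus, which becomes active in B cells responding to antigen. About 10 ng of total RNA per sample was amplified before labelling. Whether the arrays stand for different animals is not given in the labels, so each p-value reflects spread among these arrays alone, and that spread may be technical.

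The kinase mTOR, joined to the scaffold raptor (Rptor), forms mTORC1, which promotes protein synthesis and cell growth when nutrients and growth signals are present. The small GTPase Rheb switches the kinase on, and the TSC1-TSC2 complex keeps Rheb inactive. Ddit4 (REDD1) and Sesn1 (Sestrin 1) restrain mTORC1 under stress and amino acid shortage, Akt1s1 (PRAS40) binds and inhibits it, and Eif4ebp1 (4E-BP1) is a substrate that holds back cap-dependent translation until it is phosphorylated. Germinal centre B cells raise mTORC1 activity when T cells select them in the light zone. The arrays measure messenger RNA and not the phosphorylation by which most of this pathway is controlled.

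The bases just before the start sites of Tsc1, Rheb, Tsc2 and Ddit4 are shown because c-Rel acts by binding kB sites in DNA. Tsc2, Rheb and Ddit4 are among the genes with the smallest p below, and Tsc1 was added as the partner of TSC2 whose window held the only kB match. RefSeq start sites (build GRCm38.p6) were listed for 9 of the 10 genes, with 10 windows in all. Each window holds the 250 bases before the start, 5′ to 3′ on the strand of the gene, with a kB consensus match or an E box (CACGTG) in capitals and all other bases in lower case. The windows are chr2:28640983-28641232, plus strand for Tsc1, chr5:24842362-24842611, minus strand for Rheb, chr17:24632628-24632877, minus strand for Tsc2 and chr10:59951771-59952020, minus strand for Ddit4.
Tsc1: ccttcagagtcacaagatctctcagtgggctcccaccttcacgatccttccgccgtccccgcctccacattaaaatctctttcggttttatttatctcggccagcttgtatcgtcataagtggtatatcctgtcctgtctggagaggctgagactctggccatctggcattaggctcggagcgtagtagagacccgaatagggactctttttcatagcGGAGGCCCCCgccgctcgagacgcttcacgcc
Rheb: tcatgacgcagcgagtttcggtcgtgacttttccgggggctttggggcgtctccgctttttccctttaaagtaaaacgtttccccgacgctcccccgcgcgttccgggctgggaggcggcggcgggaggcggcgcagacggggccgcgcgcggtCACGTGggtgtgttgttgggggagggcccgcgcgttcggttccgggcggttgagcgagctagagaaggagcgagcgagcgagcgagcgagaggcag
Tsc2: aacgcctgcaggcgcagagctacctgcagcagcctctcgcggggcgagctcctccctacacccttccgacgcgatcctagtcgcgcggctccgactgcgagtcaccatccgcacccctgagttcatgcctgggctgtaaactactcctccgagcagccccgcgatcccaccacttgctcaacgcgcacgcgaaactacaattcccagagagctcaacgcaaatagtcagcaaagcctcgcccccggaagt
Ddit4: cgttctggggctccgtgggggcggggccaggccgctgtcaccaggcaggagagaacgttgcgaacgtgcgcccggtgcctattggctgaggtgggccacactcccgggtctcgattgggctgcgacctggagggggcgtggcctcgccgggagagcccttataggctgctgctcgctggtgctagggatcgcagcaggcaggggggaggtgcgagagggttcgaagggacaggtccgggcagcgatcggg

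The kB consensus, searched on both strands, had a match in 1 of the 10 windows, that of Tsc1, from 32 to 23 bases before the start, against 5.0% of 32851 windows of the same length over all genes. The E box CACGTG, which reads the same on both strands, occurred in 1 window, that of Rheb, from 96 to 91 bases before the start, against 6.02% of all windows. The CCAAT box, searched on both strands, was found in 4 of the 10 windows, those of Mtor and Ddit4 and both of Sesn1, against 33.8% of all. The FOXO core GTAAACA, also searched on both strands, was in 0 of the 10 and in 3.17% of all. No match of one motif overlapped a match of another in the members' windows. These motifs were kept after several others had been looked at in the same windows, and a match describes letters, not binding. GC content was 54.4%, 68.0%, 62.8% and 70.0% in the windows of Tsc1, Rheb, Tsc2 and Ddit4, against a median of 52.4% over all windows.

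Values are MAS5 signals, a brightness per probe set on a linear scale that the authors brought to a 2% trimmed mean of 500 on every array. Rel, the targeted gene, had signals of 492, 134 and 206 in WT against 18.6 and 85.2 in REL, a difference of −2.12 on the log2(signal + 16) scale (SE 0.75, limma adjusted p = 0.486), or −1.34 without REL replicate 1. Markers of germinal centre B cells and of B cells in general, such as Ms4a1 and Cd79a, were bright on every array. Their summed signals over 21 probe sets were 99659 to 117511 in WT against 101745 to 111571 in REL. This sum does not set germinal centre cells apart from other B cells. Of the 21 probe sets 9 stood higher and 12 lower in REL, beside 10124 higher and 12087 lower over all probe sets tested. Rgs13 had the smallest p, at 4960, 6058 and 6022 in WT against 4514 and 3321 in REL (limma adjusted p = 0.488). Bcl6, the transcription factor that defines the germinal centre, had signals of 7619 to 10515 in WT against 9384 and 8731 in REL by its brighter probe set. Macrophage and monocyte markers stood higher in REL, with summed signals over 29 probe sets of 1603 to 2992 in WT against 10967 and 8624 in REL. The complement gene C1qb was at 26.2, 27.0 and 3.91 in WT against 531 and 786 in REL, while Adgre1, which encodes F4/80, was at 154, 435 and 161 in WT against 120 and 116 in REL. T cell markers summed to 382 to 649 in WT against 934 and 430 in REL. The 5′ probe set of 18S ribosomal RNA was at 293 to 858 in WT against 1671 and 1984 in REL. The gap was smaller in the far brighter middle probe set, at 8696 to 9822 in WT against 11953 and 13417 in REL. It was also smaller in the 3′ probe set, at 718 to 904 in WT against 1194 and 1098 in REL. The part of these differences between the arrays in the mTORC1 gene values was not tested, and in sorted bulk samples fewer cells of a type and less RNA per cell cannot be told apart.

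Tsc2, Eif4ebp1, Ddit4 and Rheb were the mTORC1 genes with the smallest p, and none passed the threshold of an adjusted p under 0.05. Tsc2 stood 3.43-fold lower and one Eif4ebp1 probe set 2.16-fold lower in REL, while Ddit4 stood 1.39-fold and Rheb 1.45-fold higher. Of the 22 probe sets 20 passed the filter on dim probe sets and were tested, all of them with both group means above the filter. By limma 0 of the 20 were called, against 0% of the 22211 probe sets tested. At an unadjusted p under 0.05 there were 2 higher, against a background of 3.65%, and 2 lower, against 4.56%. With median centring of the arrays the background split over all probe sets went from 810 higher and 1012 lower to 1010 and 501, and the median of all probe sets from −0.05 to 0.12. Both REL arrays exceeded all 3 WT arrays in 5 of the 20 (background 10.4%) and stayed under them all in 3 (background 13.5%). The median difference of the 20 probe sets was 0.12, beside −0.05 for all probe sets, with 12 above 0 and 8 below. Over all probe sets tested 10124 were above 0 and 12087 below. The members' median was −0.08 without WT replicate 2. The members' smallest p ranked 675 among all probe sets tested.

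**Figure D1:**
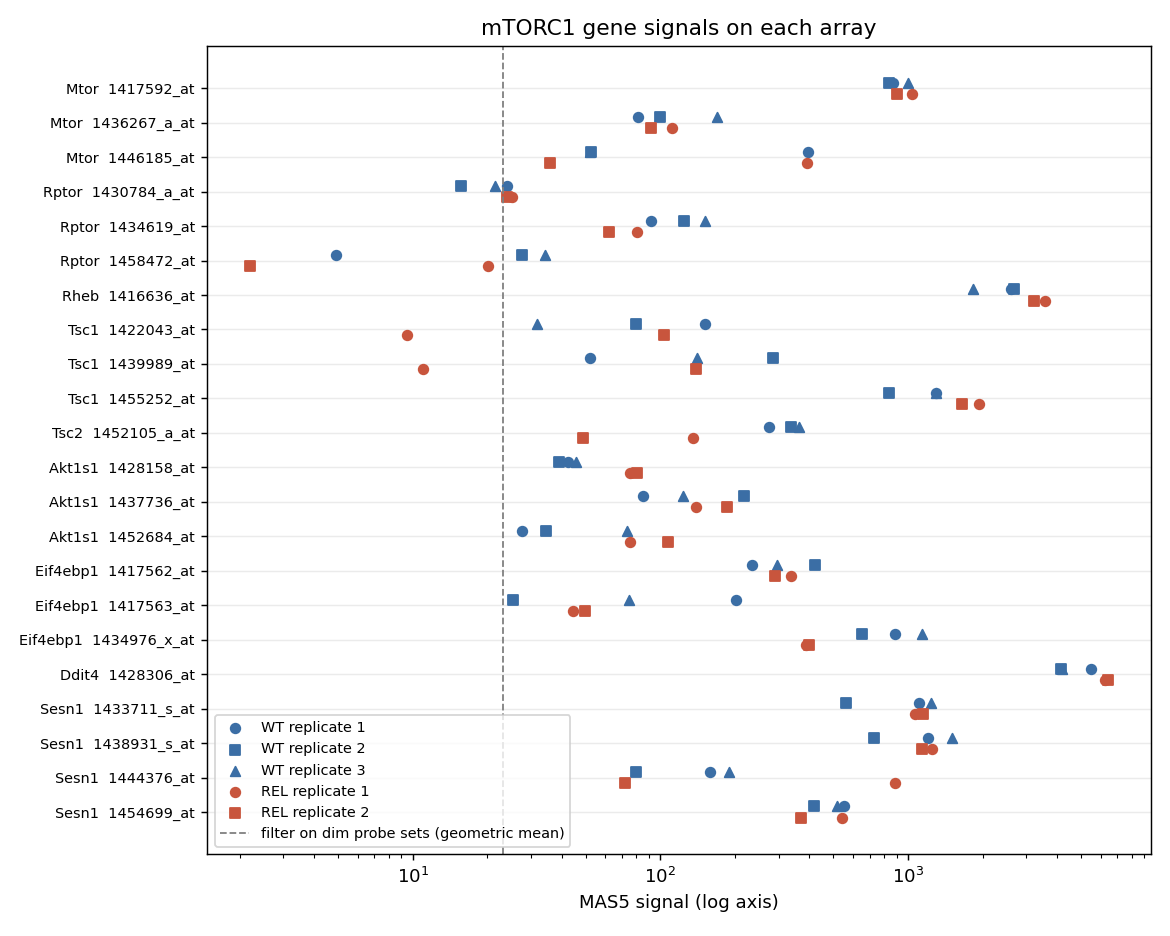
MAS5 signals (log axis) of the 22 probe sets of the mTORC1 genes, with the 3 WT arrays in blue and the 2 REL arrays in red, 1 symbol per replicate. The dashed line is the filter on dim probe sets at 23.1, and the WT and REL arrays do not overlap in 8 probe sets, which are those of Tsc2, Rheb and Ddit4, 1 each of Eif4ebp1, Rptor and Tsc1, and 2 of Akt1s1.

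Tsc2 encodes tuberin, the GTPase-activating subunit that turns Rheb off. Its single probe set, 1452105_a_at, had signals of 275, 338 and 363 in WT (325 ± 45.4, SD, n = 3) against 135 and 48.8 in REL. Both REL arrays stayed under all 3 WT arrays, and the REL pair was itself 1.22 log2 units apart. The difference was −1.78 on the log2(signal + 16) scale (SE 0.60, 95% interval −3.11 to −0.44, unadjusted p = 0.0142, limma adjusted p = 0.467). It was −2.39 without REL replicate 1 and −1.17 without REL replicate 2, and over all alternatives it stayed below 0 with adjusted p from 0.182 to 0.868.

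Tsc1 encodes hamartin, which stabilises TSC2 in the complex, and its 3 probe sets did not point one way. The brightest, 1455252_at, was at 1302, 836 and 1302 in WT (1147 ± 269, SD, n = 3) against 1929 and 1650 in REL, a difference of 0.66 (SE 0.31, 95% interval −0.03 to 1.35, limma adjusted p = 0.633). Both REL arrays exceeded all 3 WT arrays there. The other Tsc1 probe sets were dimmer and spread widely. Probe set 1439989_at read 51.8, 284 and 141 in WT against 11 and 139 in REL (−1.18, SE 0.89), and 1422043_at read 151, 79.4 and 31.9 in WT against 9.45 and 103 in REL (−0.73, SE 0.80). In both the low value came from REL replicate 1, and without it they stood at 0.08 and 0.38.

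Rheb, the GTPase that activates the kinase, was measured by 1 bright probe set. Its signals were 2611, 2669 and 1835 in WT (2372 ± 466, SD, n = 3) against 3573 and 3225 in REL, and both REL arrays exceeded all 3 WT arrays. The difference was 0.53 (SE 0.24, 95% interval 0.00 to 1.07, unadjusted p = 0.0493, limma adjusted p = 0.608). It was 0.36 without WT replicate 3, the lowest array of the group. Within the Rheb switch the brightest Tsc1 probe set and Rheb stood higher in REL and Tsc2 lower, none past the threshold.

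Mtor, the kinase itself, showed the narrowest interval around 0 of its gene's probe sets in 1417592_at, with signals of 869, 838 and 997 in WT (901 ± 83.9, SD, n = 3) against 1042 and 902 in REL. The groups overlapped, with a difference of 0.11 (SE 0.32, 95% interval −0.60 to 0.82, limma adjusted p = 0.964). Probe set 1436267_a_at read 81.4, 100 and 170 in WT against 111 and 91.8 in REL (−0.13, SE 0.60, and 0.04 with median centring of the arrays). Probe set 1446185_at read 395, 52.6 and 52.2 in WT against 392 and 36 in REL, so that 1 array of each group stood apart from the rest. Its difference of 0.23 (SE 1.04) became −1.26 without REL replicate 1 and 1.72 without REL replicate 2.

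Rptor, the raptor scaffold that brings substrates to the kinase, had 1 of 3 probe sets above the filter. That probe set, 1434619_at, was at 91.4, 125 and 151 in WT (122 ± 29.8, SD, n = 3) against 80.3 and 62.1 in REL. Both REL arrays stayed under all 3 WT arrays, by a difference of −0.65 (SE 0.58, 95% interval −1.96 to 0.65, limma adjusted p = 0.827). The dim probe sets read 15.6 to 24.1 in WT against 25.1 and 24.0 in REL (1430784_a_at), and 4.92 to 34.3 in WT against 20.1 and 2.21 in REL (1458472_at). With no filter they stood at 0.16 and −0.48, with adjusted p of 0.963 and 0.879.

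Akt1s1 encodes PRAS40, an inhibitor that Akt removes from mTORC1 by phosphorylation, and its 3 probe sets all had differences above 0. Probe set 1428158_at read 42.3, 38.8 and 45.8 in WT (42.3 ± 3.50, SD, n = 3) against 75.4 and 80.5 in REL (0.69, SE 0.54, limma adjusted p = 0.798). Probe set 1452684_at read 27.5, 34.5 and 73.4 in WT against 75.4 and 107 in REL (0.86, SE 0.59, limma adjusted p = 0.762). In both the REL arrays exceeded all 3 WT arrays, although the third WT array of 1452684_at came close to them. The brightest probe set, 1437736_at, read 84.8, 218 and 123 in WT against 139 and 186 in REL, so the groups overlapped (0.25, SE 0.62), and it was at −0.03 without WT replicate 1.

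Ddit4 is the stress-induced REDD1 gene, whose product acts through the TSC complex. Its single probe set, 1428306_at, read 5470, 4157 and 4175 in WT (4600 ± 753, SD, n = 3) against 6253 and 6398 in REL. Both REL arrays exceeded all 3 WT arrays, and the REL pair differed by 0.03 log2 units. The difference was 0.47 (SE 0.18, 95% interval 0.07 to 0.87, unadjusted p = 0.0270, limma adjusted p = 0.521), with a range of 0.40 to 0.64 over the alternatives.

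Sesn1, a p53 and FOXO target that senses leucine shortage through the GATOR complexes, showed no separation of the groups in any of its 4 probe sets. Probe sets 1433711_s_at and 1438931_s_at, whose suffix marks probes shared with related transcripts, both had their lowest signal in WT replicate 2. The first read 1103, 560 and 1244 in WT against 1065 and 1152 in REL (0.27, SE 0.39), and the second 1201, 726 and 1499 in WT against 1255 and 1143 in REL (0.13, SE 0.36). Without WT replicate 2 they stood at −0.08 and −0.16. Probe set 1454699_at read 551, 418 and 518 in WT against 542 and 369 in REL (−0.13, SE 0.43, and 0.04 with median centring). In 1444376_at REL replicate 1 reached 890 while the other arrays read 71.8 to 190, and the difference of 0.90 (SE 0.92) was −0.78 without that array and 2.58 without REL replicate 2.

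Eif4ebp1 encodes 4E-BP1, the substrate through which mTORC1 controls cap-dependent translation. Its brightest probe set, 1434976_x_at, read 888, 650 and 1135 in WT (891 ± 242, SD, n = 3) against 389 and 398 in REL, with both REL arrays under all 3 WT arrays. The difference was −1.11 (SE 0.40, 95% interval −2.00 to −0.23, unadjusted p = 0.0190, limma adjusted p = 0.487), with a range of −1.32 to −0.92 over the alternatives. The suffix x_at marks a probe set in which some probes may bind other transcripts. The other probe sets of the gene did not show the same gap. Probe set 1417562_at read 235, 421 and 295 in WT against 336 and 290 in REL (0.02, SE 0.50, and −0.05 with quantile normalization), and 1417563_at read 202, 25.3 and 74.5 in WT against 44.4 and 49.6 in REL (−0.57, SE 0.74, and 0.04 without WT replicate 1).

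**Figure D2:**
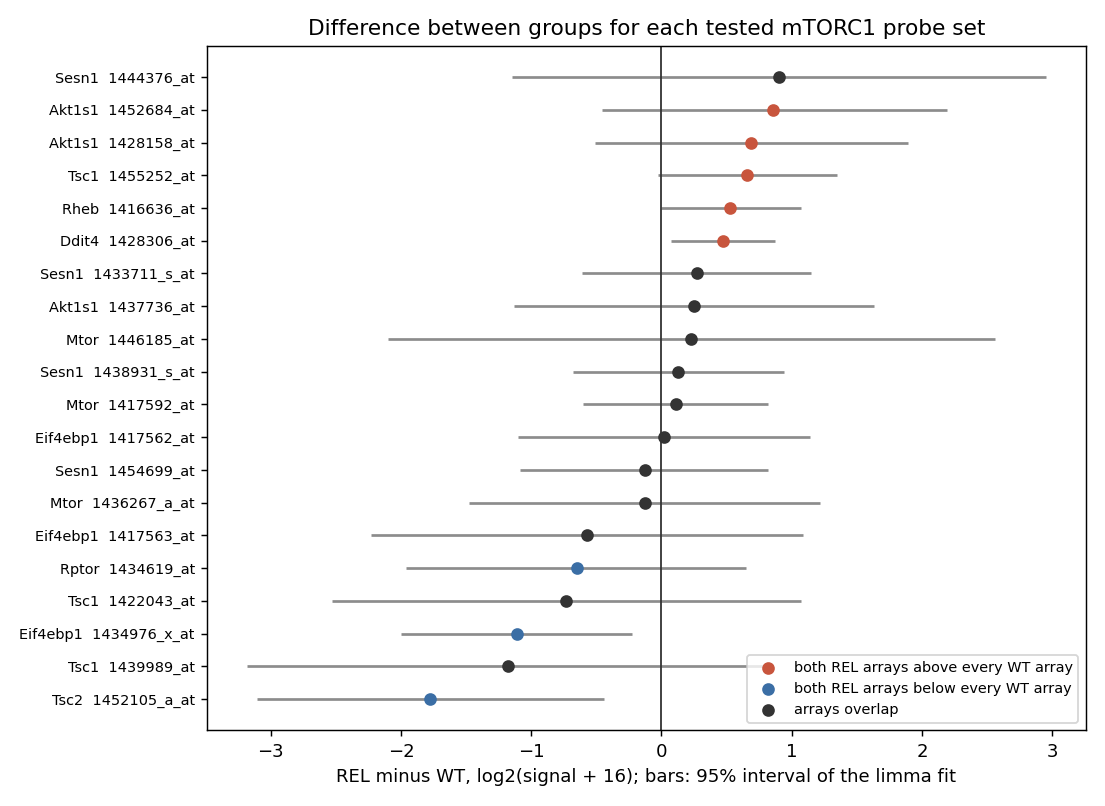
Difference between groups (REL minus WT, log2(signal + 16)) for the 20 tested probe sets, with the 95% interval of the limma fit as bars. Red points have both REL arrays higher than all 3 WT arrays, blue points below, and black points overlap. The intervals of Tsc2, Ddit4 and Eif4ebp1 1434976_x_at lie to one side of 0, as does that of Rheb at its rounded limit of 0.00.

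Probe sets of one gene often disagreed. Of the 5 genes with more than 1 tested probe set, 4 (Mtor, Tsc1, Eif4ebp1 and Sesn1) had probe sets on both sides of 0, and Akt1s1 had all 3 on one side. The spread between WT arrays ran from 0.09 log2 units (Akt1s1 1428158_at) to 1.49 (Mtor 1446185_at), with a median of 0.44 over the 20 probe sets beside 0.39 over all probe sets tested. With 1 probe set per gene, the brightest, the 9 genes had differences of −1.78 for Tsc2, −1.11 for Eif4ebp1, −0.65 for Rptor, 0.11 for Mtor, 0.13 for Sesn1, 0.25 for Akt1s1, 0.47 for Ddit4, 0.53 for Rheb and 0.66 for Tsc1. Limma adjusted p over 12082 genes ran from 0.45 for Tsc2 to 0.964 for Mtor. Leaving out 1 array at a time kept the sign of Tsc2, Ddit4, Rheb, Rptor 1434619_at, Eif4ebp1 1434976_x_at, Tsc1 1455252_at, Mtor 1417592_at and Akt1s1 1428158_at and 1452684_at, and turned that of the other 11 probe sets at least once. The count at an unadjusted limma p under 0.05 was 0 without WT replicate 3 and 2 without WT replicate 1. Over all probe sets there were then 632 higher and 652 lower of 22208 without WT replicate 3. Without WT replicate 1 there were 770 higher and 896 lower of 22218. WT replicate 3 had the highest ratio of 3′ to 5′ Actb signal (2.448, against 1.577 to 1.735 on the other arrays) and the highest median signal (54.65, against 30.13 to 48.07), and their part in this count was not tested.

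**Figure D3:**
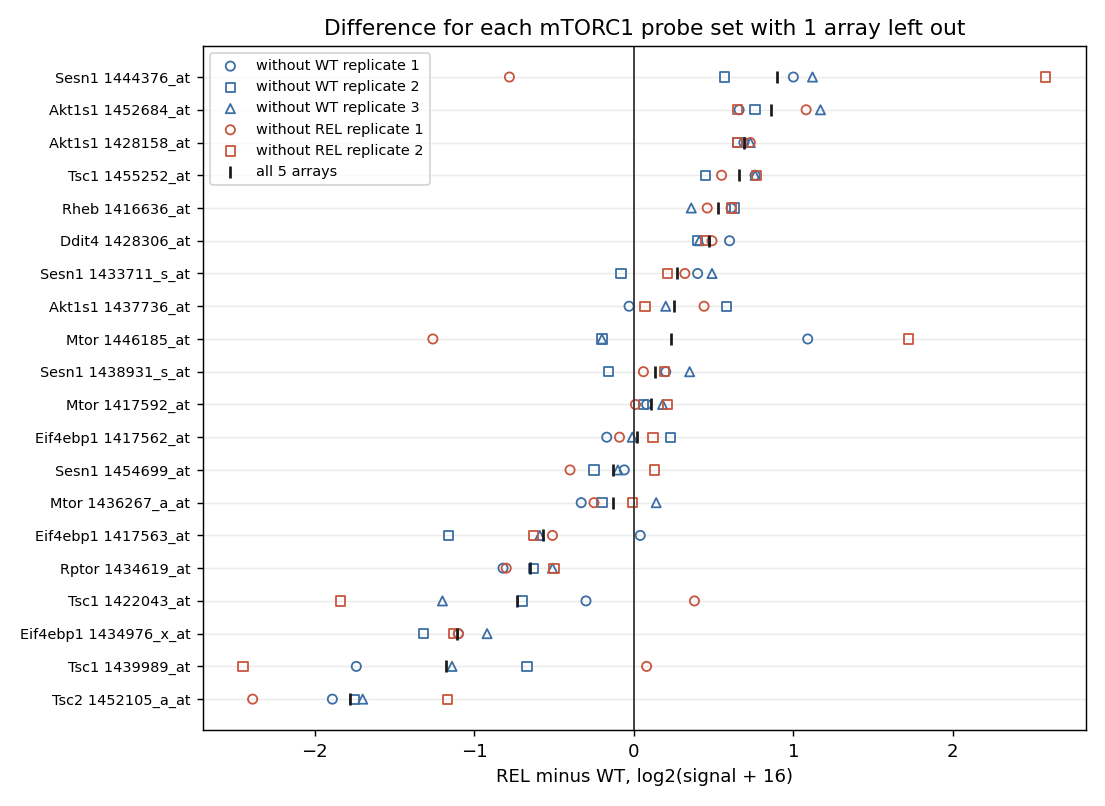
Difference between groups (REL minus WT, log2(signal + 16)) for the 20 tested probe sets with all 5 arrays (black bar) and with each array left out (open symbols). The widest ranges belong to Mtor 1446185_at (−1.26 to 1.72) and Sesn1 1444376_at (−0.78 to 2.58).

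The wider pathway was read from 7 lists of genes with 239 tested probe sets of 111 genes. By limma 0 of the 239 were called, with 9 higher (background 3.65%) and 10 lower (background 4.56%) at an unadjusted p under 0.05. These counts lie near the background, as do the 29 probe sets with both REL arrays above and the 34 with both under all WT arrays. The median of the 239 was −0.01 beside −0.05 over all probe sets, with 116 above and 123 below 0. Over all probe sets tested 10124 were above and 12087 below 0, which is the background for the splits given below. The shares at an unadjusted limma p under 0.05, 3.65% higher and 4.56% lower, are the background for each list below. Values below that are not signals are log2 differences, REL minus WT, and none passed the threshold.

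Among partners in the mTOR complexes (24 probe sets, 12 above and 12 below 0, median 0.00), 0 had an unadjusted p under 0.05. Telo2, part of the chaperone complex that matures mTOR and related kinases, read 304, 326 and 443 in WT against 149 and 214 in REL by probe set 1456579_x_at (−0.92, SE 0.51, limma adjusted p = 0.691). A second Telo2 probe set stood at −0.76, or −0.44 without WT replicate 3, and all 3 of the gene were below 0. Rictor, the scaffold of mTORC2, was at 1.22 (SE 0.74) by 1453775_at with overlapping arrays, and at 1.88 without REL replicate 1 and 0.55 without REL replicate 2. Of its 5 probe sets 4 were above 0, and 1429810_at was at −0.79.

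On the nutrient side, the Rag GTPases, Ragulator and folliculin (25 probe sets, median 0.10) had 0 higher and 2 lower at an unadjusted p under 0.05. Rragc, a Rag GTPase that recruits mTORC1 to the lysosome, read 1922, 2163 and 2162 in WT against 1574 and 1220 in REL (−0.58, SE 0.25, limma adjusted p = 0.599). The Ragulator gene Lamtor2 read 49.7, 41.3 and 54.1 in WT by 1435729_at, which passed the filter through WT only, since REL read 5.45 and 9.14. Its brighter probe set, 1422797_at, stood at 0.48. Lamtor4, another Ragulator gene, was at 0.60 with overlapping arrays, and at 1.07 without REL replicate 1 and 0.14 without REL replicate 2.

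The GATOR complexes, KICSTOR and amino acid sensors (28 probe sets, median 0.14) had 1 higher and 0 lower at an unadjusted p under 0.05. The higher one was Itfg2, a KICSTOR subunit, at 765, 791 and 1209 in WT against 1441 and 2551 in REL (1.08, SE 0.36, limma adjusted p = 0.465). It was at 0.67 without REL replicate 2. Sesn2, a Sestrin that binds leucine, read 12.3 to 27.6 in WT by a probe set that passed the filter only through its REL signals of 61.6 and 55.9. Its brighter probe set, 1451599_at, was at 0.63 (SE 0.60), with both REL arrays above all WT arrays. Depdc5 of GATOR1 was at −1.04 (SE 0.53), while its probe set 1457500_at was at 1.22 and its brightest, 1435535_at, at −0.07.

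Upstream inputs from PI3K, Akt, AMPK and the TSC neighbourhood (56 probe sets, median 0.20) had 5 higher (background 3.65%) and 3 lower (background 4.56%) at an unadjusted p under 0.05. In 13 both REL arrays were higher than all 3 WT arrays (background 10.4%), and in 4 both were lower (background 13.5%). Pik3ca, a PI3K catalytic subunit, read 80.1, 169 and 145 in WT by 1440054_at (limma adjusted p = 0.321), which passed the filter through WT only, since REL read 6.21 and 7.57. The size of its difference is set by the pseudocount, from −4.01 with 1 to −1.43 with 64. Of the 6 Pik3ca probe sets 4 were below 0, among them the bright 1453134_at at −0.58 with overlapping arrays. On the other side of 0, 1423144_at was at 913, 721 and 873 in WT against 2048 and 1150 in REL (0.87). The brightest, 1460326_at, was at 0.12. Gsk3b, a kinase that phosphorylates TSC2, differed by 2.45 in 1434439_at (SE 0.72, limma adjusted p = 0.412). That probe set read 83.6, 82.2 and 452 in WT against 962 and 821 in REL. Of the 6 Gsk3b probe sets 4 were above 0. Probe set 1437001_at read 1972, 1535 and 1095 in WT against 3542 and 2352 in REL (0.95, SE 0.31, limma adjusted p = 0.464). The brightest, 1454958_at, stood at 0.33 with overlapping arrays. Inpp5d, the SHIP1 phosphatase that opposes PI3K, read 3758, 3805 and 4021 in WT against 2187 and 2815 in REL (−0.63, SE 0.20, limma adjusted p = 0.452). Its dimmer probe set, 1424195_a_at, was at −0.15 with overlapping arrays.

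mTORC1 substrates and translation targets (37 probe sets, 12 above and 25 below 0, median −0.07) had 2 higher and 0 lower at an unadjusted p under 0.05. Lpin1, a phosphatidate phosphatase that mTORC1 phosphorylates, differed by 2.60 (SE 0.79, limma adjusted p = 0.432) in a probe set that read 88.7, 2.52 and 61.6 in WT against 292 and 323 in REL, while its other probe set was at −0.09. Tfe3, a transcription factor of lysosomal genes held in the cytoplasm by mTORC1, read 1148, 1222 and 1026 in WT against 1656 and 2061 in REL (0.70, SE 0.28, limma adjusted p = 0.545). Rps6, the ribosomal protein that S6 kinase phosphorylates, was at −0.39 (SE 0.18) by its bright probe set and at 1.51 by a dim one.

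Transcription factors downstream of mTORC1 and enzymes they induce (38 probe sets, 12 above and 26 below 0, median −0.11) had 0 higher (background 3.65%) and 5 lower (background 4.56%) at an unadjusted p under 0.05. In 11 both REL arrays stayed under all 3 WT arrays (background 13.5%), and in 4 both exceeded them (background 10.4%). Phgdh, the first enzyme of serine synthesis, read 4588, 4495 and 5117 in WT against 2339 and 2888 in REL by 1437621_x_at (−0.86, SE 0.19, limma adjusted p = 0.327). A second Phgdh probe set was at −0.73 and all 4 of the gene were below 0, with 1426658_x_at at −0.11 and overlapping arrays. All 4 carry the x_at suffix, so some of their probes may bind other transcripts. Ldha, lactate dehydrogenase A, read 8948, 9697 and 10122 in WT against 5671 and 7800 in REL (−0.52, SE 0.16, limma adjusted p = 0.438). Without REL replicate 1 Ldha was at −0.30 and the second Phgdh probe set at −0.46.

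The list of p53, FOXO and stress genes held response genes such as Cdkn1a and Txnip as well as regulators of the Sestrin genes and Ddit4. Its 31 probe sets (16 above and 15 below 0, median 0.01) had 1 higher and 0 lower at an unadjusted limma p under 0.05. It was Nr3c1, the glucocorticoid receptor gene, at 1.93 (SE 0.73, limma adjusted p = 0.513) by a dim probe set, and at 0.87 without REL replicate 1 and 3.00 without REL replicate 2. Its bright probe set 1421867_at stood at 0.33. Txnip, a FOXO and glucose-responsive gene, was at 1.22 (SE 0.57) and at 0.26 by its brighter probe set. Foxo1 was at 0.69 (SE 0.40), or 0.43 without WT replicate 2 and 0.42 without REL replicate 2, and its brighter probe sets 1416982_at and 1416983_s_at were at −0.25 and −0.03.

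**Figure D4:**
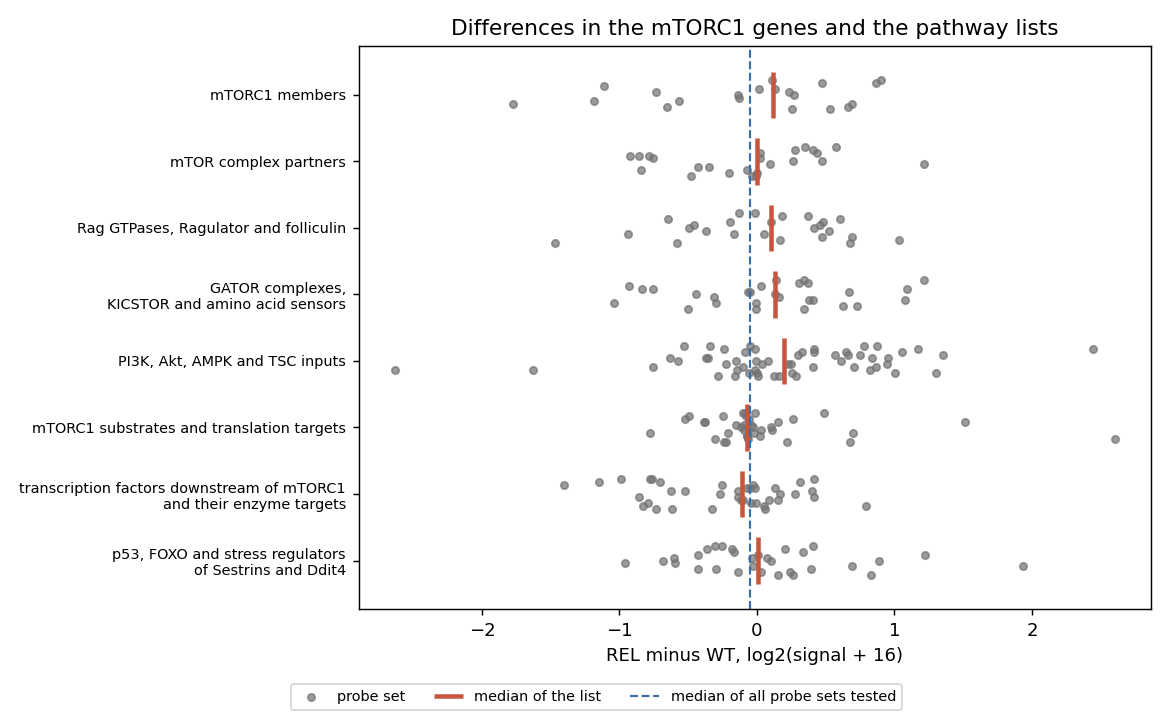
Difference between groups (REL minus WT, log2(signal + 16)) for each tested probe set (grey points) of the mTORC1 genes and 7 pathway lists, with the median of each list in red and that of all probe sets (−0.05) as a dashed line. List medians run from −0.11 to 0.20.

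Tsc2 was the mTORC1 probe set with the smallest p, and 3 other genes had the profiles over the 5 arrays nearest to it, by the root mean square distance between log2 values centred on each gene's own mean. They were Ccdc18 (distance 0.08), Plod3 (0.13) and Zfp619 (0.13), which read 56.4 to 87.7, 87.6 to 102 and 60.4 to 104 in WT. In REL they read 26 and 1.63, 35.2 and 7.48, and 36.5 and 4.27. These genes were picked from 22211 probe sets for this likeness, so it is a description of 5 arrays with no test.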

How the data were processed

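Gene expression was measured on 5 single-colour Affymetrix arrays, 3 WT and 2 REL, grouped by the titles in the labels. The deposited values are signal intensities on a linear scale, and MAS5 is named without a version in the submitters' processing notes. MAS5 summarises each array on its own. Depth does not apply, and the number of arrays limits the precision.

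Gene symbols came from the platform annotation (34958 with 1 symbol, 932 with several, 9211 with none listed). Values were taken as log2(signal + 16), which understates differences between dim signals. The dimmest 40% by mean log2 value (signal below about 23.1) were left out. For the remaining 22211 a linear model was fitted in limma 3.58.1 under R 4.3.3 (moderated by eBayes, trend on, 3 residual and 6.63 prior degrees of freedom, Benjamini-Hochberg over all, two-sided). The code was tested on simulated data. Every member probe set is given, with Rel, the 3 smallest p of each pathway list, any called probe set, and the 3 genes whose profile is nearest that of the member with the smallest p. The members and lists were chosen with earlier results of these data known. Alternatives were other pseudocounts, filters and scalings, 1 probe set per gene, no trend, the replicate number as a block, and each array left out. Python 3.11.15, pandas 2.3.3, numpy 2.4.6 and matplotlib 3.10.9 made tables and plots.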

Additional observations from a re-analysis of the deposited data

How the results depend on the processing

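Under the 14 alternatives 0 of the mTORC1 and 0 of the 22 other named probe sets were called by limma. Of the 20 mTORC1 probe sets 9 kept their direction wherever they were tested, as did the 22 others. Over all probe sets 1 was called with median centring, 1 with 1 probe set per gene and 3 with the replicate block, none of them an mTORC1 or pathway gene. The 4 mTORC1 probe sets at an unadjusted limma p under 0.05 became 2 with median centring and 2 with the replicate block. They became 0 to 3 with 1 WT array left out. Over all probe sets the split was 763 higher and 882 lower with the block. With 1 WT array left out it was 574 to 770 higher and 652 to 896 lower. Median centring moved the median of all probe sets from −0.05 to 0.12 and the split at an unadjusted p under 0.05 from 810 higher and 1012 lower to 1010 and 501, and the mTORC1 probe sets from 12 above and 8 below 0 to 14 and 6. Direction turned with median centring for Mtor 1436267_a_at and Sesn1 1454699_at (both 0.04), with quantile normalization for Eif4ebp1 1417562_at (−0.05), and with the replicate block for Mtor 1436267_a_at (0.14), Mtor 1446185_at (−0.20) and Eif4ebp1 1417562_at (−0.01). With 1 array left out the ranges were −0.33 to 0.14 for Mtor 1436267_a_at, −1.26 to 1.72 for Mtor 1446185_at, −1.84 to 0.38 for Tsc1 1422043_at, −2.45 to 0.08 for Tsc1 1439989_at, −0.03 to 0.58 for Akt1s1 1437736_at, −0.17 to 0.23 for Eif4ebp1 1417562_at and −1.16 to 0.04 for Eif4ebp1 1417563_at. For Sesn1 they were −0.08 to 0.49 (1433711_s_at), −0.16 to 0.35 (1438931_s_at), −0.78 to 2.58 (1444376_at) and −0.40 to 0.13 (1454699_at). Replicate 3 exists in WT only, so the block absorbed that array, and its differences equalled those without WT replicate 3. The block and that omission are therefore not separate checks of direction. The cause of these changes was otherwise not tested. The labels give a replicate number and do not say whether same-numbered arrays are paired. Deviations of same-numbered arrays from their group means correlated at −0.0176 and −0.00335. With 2 REL arrays the REL deviations mirror each other, so these values cannot decide on pairing. The block changed no call of an mTORC1 or pathway probe set. With a REL array left out the lone REL array is assumed to vary like the WT group.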
